A study of Mus musculus with 8 samples.

Results

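Neural stem cells labelled miPS-NSC were compared with neural stem cells labelled fNSC across every gene with a name in the platform annotation. The comparison uses 4 of the 8 expression arrays of the series, chosen by the cell type label, 2 arrays for each group, and it covers 8107 genes. The remaining 4 arrays hold parthenogenetic neural stem cells (pNSC) and mouse embryonic fibroblasts (MEF), and they are used to set the differences in place. From what is known of the study, fNSC carry a maternal and a paternal genome, pNSC carry only maternal genomes, and miPS-NSC are neural stem cells differentiated again from induced pluripotent stem cells that were made from parthenogenetic cells. The labels themselves do not explain the name miPS-NSC.

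The labels give the fNSC arrays the genotype OG2ROSA and the sample name NSC P27, and the miPS-NSC arrays the genotype OG2+/- and the sample name pips-NSC P8. The pNSC arrays have the genotype OG2+/- and P18. For MEF the labels read OG2+/- and the headers of the signal columns OG2ROSA1, 2 names that do not match. OG2 is a transgene that reports activity of the pluripotency gene Pou5f1 (Oct4) with green fluorescent protein. Every array is labelled female, but the Y-linked gene Uty was detected on both MEF arrays (log2 intensity 7.54 and 7.57), which goes against that label. The protocol names for all of them, MEF included, a neural stem cell medium with 10 ng/ml each of EGF and bFGF and 50 µg/ml of serum albumin. The sources used here do not explain the P numbers or the ending "re" of each second array's name, and they name 1 line per group. Group, genotype and P number cannot be told apart in this design. Whether the 2 arrays per group stem from separate cultures is not stated, and each p-value below therefore measures only the spread between arrays, which may be technical.

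Neural stem cells are self-renewing cells of the developing and adult brain that can give rise to neurons, astrocytes and oligodendrocytes, and in culture they are kept dividing by EGF and bFGF. Notch signalling holds them undifferentiated through its targets of the Hes family, while the p53 pathway and the Cdkn2 locus restrain their division. Their metabolism leans on glycolysis, whose enzymes are induced by the hypoxia-inducible factor HIF when its oxygen-dependent degradation, begun by the Egln prolyl hydroxylases, is low.

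Of a list of 29 neural stem cell markers, 18 had a named probe that passed the detection filter and so were measured. The fNSC arrays detected 18 of these 18 and the miPS-NSC arrays 17. Over all 8107 genes they detected 7266 and 7290, so detection of most measured markers is no trait of this list. In miPS-NSC 6 of the 18 were called lower and 2 higher, with values given further on. Sox2 and Sox9 are 2 of the 10 that were not called, and Olig1 is not in that list. Sox2, the transcription factor that maintains neural stem cells, read 8.33 and 9.04 on the fNSC arrays and 8.28 and 8.66 on the miPS-NSC arrays, on the log2 scale of normalized intensity used for all levels below, and 4.83 and 4.83 on the MEF arrays, where it was not detected. Olig1, a transcription factor of neural progenitors, was among the brightest genes, at 15.13 and 15.17 in fNSC and 14.84 and 14.68 in miPS-NSC, and was not detected in MEF. The glial transcription factor Sox9 read 9.22 and 9.56 in fNSC and 9.49 and 9.72 in miPS-NSC. For each of these genes the arrays of the 2 groups overlapped or lay close together, and none was called.

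Of the 8107 genes, 1144 (14.1%) were called different between miPS-NSC and fNSC, 689 higher in miPS-NSC (8.5%) and 455 lower (5.61%). A call needed a limma p-value, adjusted by Benjamini-Hochberg over all genes, under 0.05 together with a change of 2-fold or more. The difference reached 4-fold for 197 higher and 118 lower genes, 8-fold for 72 and 51, and 16-fold for 25 in each direction. The median difference over all genes was -0.04 (log2, miPS-NSC minus fNSC, as for all differences below). The root mean square log2 difference between the group means was 0.869, beside 0.874 between miPS-NSC and pNSC, 0.797 between fNSC and pNSC, and 1.67 to 1.71 between MEF and any neural stem cell group. Within a group, the SD of the difference between arrays was 0.261 in fNSC and 0.252 in miPS-NSC.

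**Figure D1:**
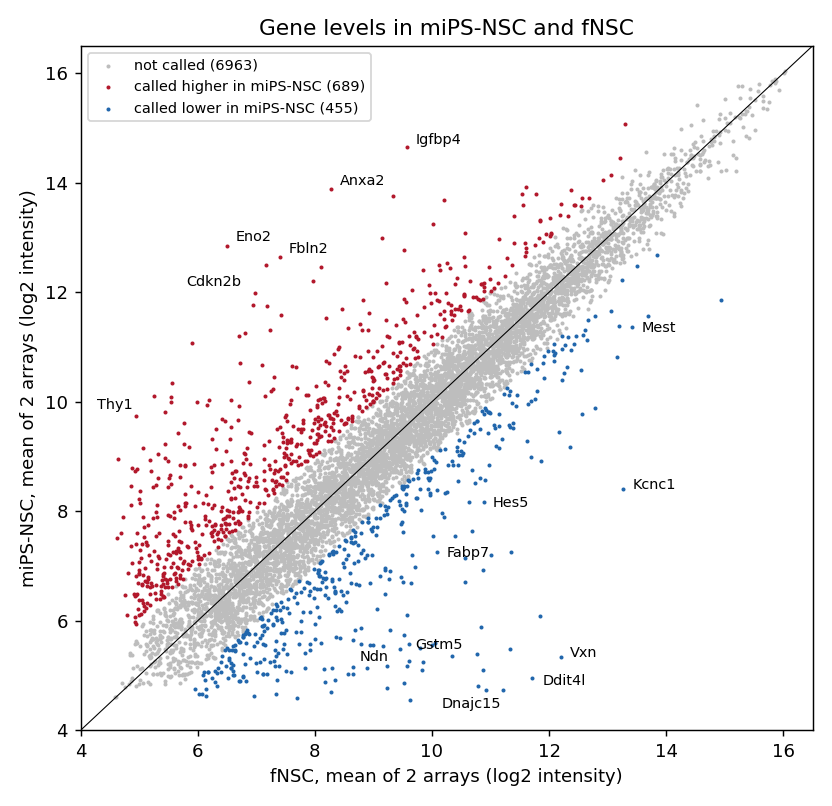
Level of each of the 8107 genes in miPS-NSC (vertical axis) against fNSC (horizontal axis), both as the mean log2 intensity of 2 arrays, with the 689 genes called higher in miPS-NSC in red and the 455 called lower in blue. The line marks equal levels. Eno2, Anxa2 and Fbln2 lie far above it, and Vxn, Ddit4l and Dnajc15 far below it, at a miPS-NSC level close to the bottom of the scale.

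A part of the called genes were read on one side only. For 191 of the 689 higher genes neither fNSC array detected the gene, and for 150 of the 455 lower genes neither miPS-NSC array did. For such genes the fold is given as "at least", with the undetected group set to the lowest detected signal of its arrays. Among the 191 genes, 103 were detected on both pNSC arrays and 133 on both MEF arrays, and among the 150 genes 95 and 95. These counts are largely set by the choice of named probes, which had a detection p below 0.05 on 4 or more arrays. A named gene that fNSC or miPS-NSC did not detect therefore mostly had to be detected in pNSC or MEF. No conclusion about these cells is drawn from the counts. The arrays were alike in the number of detected probes (detection p under 0.01), from 10553 to 10902 of 25697.

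Genes of the low-oxygen response had the highest share of calls among the lists with over 10 measured genes. The lists were chosen with earlier results of these data known, so this rank is a description. Of 16 measured members of the hypoxia response, 12 were higher in miPS-NSC and 1 was lower, which is 81.2% called against 14.1% of all genes, and the median difference was 1.80. The lower gene was Adm, and the 3 members that were not called, Mxi1, Kdm3a and Hif1a, had differences of 0.86, 0.72 and 0.49.

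Among the higher genes were a secreted growth factor and enzymes of collagen assembly. Vegfa, the growth factor that draws in blood vessels, read 11.56 and 11.50 in fNSC and 13.76 and 13.85 in miPS-NSC. The miPS-NSC arrays lay above every other array of the series, and the rise was 4.83-fold (log2 difference 2.27, SE 0.09, adjusted p = 3.02e-06). A second Vegfa probe gave a difference of 3.11. P4ha1 and P4ha2, subunits of the enzyme that hydroxylates proline in collagen, read 6.95 and 6.87 and then 5.83 and 5.74 in fNSC, against 9.31 and 9.56 and then 8.08 and 8.10 in miPS-NSC. P4ha1 rose 5.74-fold (2.52, SE 0.17, adjusted p = 3.18e-05) and P4ha2, not detected in fNSC, at least 3.68-fold (2.31, SE 0.08, adjusted p = 1.77e-06). In both cases the arrays of the 2 groups did not overlap, which held for 76.1% of all genes. Ndrg1, a stress-response gene of the cytoplasm, was at 5.79 and 5.30 in fNSC, below detection, and at 9.87 and 10.29 in miPS-NSC, at least 14.6-fold higher (4.53, SE 0.28, adjusted p = 2.07e-05). Selenbp1, a selenium-binding methanethiol oxidase that is a less established member of this response, rose 22.7-fold, from 6.62 and 6.77 to 11.14 and 11.25 (4.50, SE 0.10, adjusted p = 3.9e-07).

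The oxygen sensors that are themselves HIF targets were higher too. Egln3 read 9.91 and 10.05 in fNSC and 11.77 and 11.83 in miPS-NSC, and Egln1 read 8.04 and 7.85 against 9.48 and 9.50, rises of 3.53-fold and 2.91-fold (adjusted p = 1.1e-05 and 0.000614). The other Egln1 probes gave 0.94 and 1.42. The mTOR inhibitor gene Ddit4 rose 3.80-fold, from 10.08 and 10.03 to 12.01 and 11.95 (SE 0.09 on the log2 scale, adjusted p = 4.8e-06). Bnip3l, a mitophagy receptor, rose 2.06-fold, and Higd1a, a mitochondrial protein induced by hypoxia, 3.43-fold. The exception was Adm, which encodes the vasodilator peptide adrenomedullin. It read 8.49 and 8.63 in fNSC and 5.19 and 4.85 in miPS-NSC, where it was not detected, at least 5.14-fold lower (-3.54, SE 0.25, adjusted p = 4.07e-05).

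These levels were set apart from pNSC as well. Of the 12 higher genes, 11 were also called higher in miPS-NSC than in pNSC, a contrast in which 7.64% of all genes were called higher and 14.6% in either direction. Both contrasts use the same miPS-NSC arrays, and of all 689 genes called higher than fNSC 46.7% were also called higher than pNSC. Higd1a was the exception, at 8.39 and 8.34 in pNSC (1.92-fold, adjusted p = 0.00406). In the plot of hypoxia response genes the miPS-NSC marks of 10 of the 12 lie above the marks of all other groups. The same held for 335 of the 689 called higher genes (48.6%) and 14.5% of all genes, and with the MEF arrays left out for 12 of the 12 and 539 of the 689. For P4ha1 the MEF arrays overlapped those of miPS-NSC, and for P4ha2 they lay above them.

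**Figure D2:**
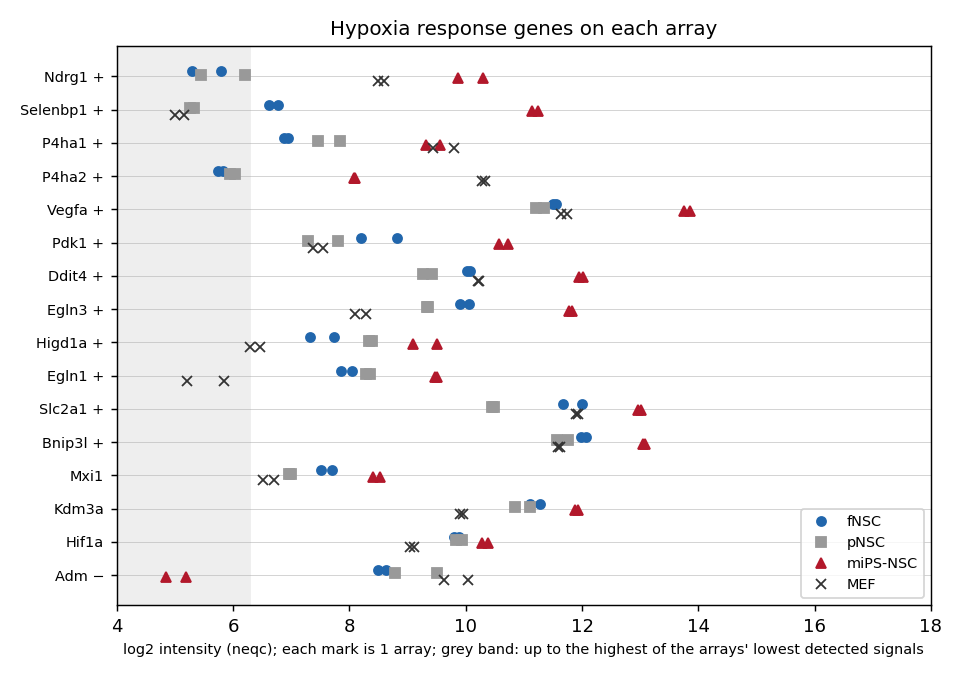
Level of the 16 measured hypoxia response genes on each of the 8 arrays (horizontal axis, log2 intensity), 1 mark per array, coloured by group, with + and − for genes called higher or lower in miPS-NSC than in fNSC and a grey band where signals were at or below the lowest detected ones. Each of the 12 genes marked + has both miPS-NSC marks to the right of both fNSC marks, and Adm is the gene with both miPS-NSC marks in the grey band.

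HIF binds DNA at a core of A or G followed by CGTG. The promoters of the measured hypoxia genes were searched for ACGTG, which on the other strand reads CACGT, in the 250 bases before each start, in RefSeq sequences of GRCm38.p6. ACGTG occurred in 8 of 12 promoters of the hypoxia genes called higher that had an entry (66.7%, 10 genes), in 22.2% of the promoters of all genes tested, and in 16.6% of all 32851 promoters. The promoters of all genes called higher held it in 20.7% of cases and those of all genes called lower in 19.7%. The commoner form GCGTG occurred in 9 of the 12 promoters (75.0%) and in 45.7% of those of all genes tested. Over the promoters of all measured hypoxia genes, called or not, ACGTG occurred in 11 of 20 (55.0%). The list was chosen as genes of this response, known HIF targets among them. A share above that of all genes therefore comes with that choice and is no result of these arrays. The match is a description of the letters, and binding was not measured. ACGTG also lies within the E-box CACGTG, which other factors bind. The stretches below are examples of this form of the core within the window of genes that rose, with it in capitals, 5′ to 3′ on the strand of the gene.
P4ha1 (chr10:59323236-59323295, plus strand): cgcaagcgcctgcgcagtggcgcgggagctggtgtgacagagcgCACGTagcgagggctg
P4ha2 (chr11:54100818-54100877, plus strand): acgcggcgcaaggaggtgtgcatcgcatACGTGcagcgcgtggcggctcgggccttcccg
Ddit4 (chr10:59951926-59951985, minus strand): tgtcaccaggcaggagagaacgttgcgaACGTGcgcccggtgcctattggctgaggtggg
Egln1 (chr8:124949291-124949350, minus strand): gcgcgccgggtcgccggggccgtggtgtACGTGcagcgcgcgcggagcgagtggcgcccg
Slc2a1 (chr4:119108681-119108740, plus strand): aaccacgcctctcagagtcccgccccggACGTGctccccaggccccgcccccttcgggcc
The nearest ACGTG lay 16 bases before the start in P4ha1, 36 in Slc2a1, 68 in Egln1, 78 in P4ha2 and 187 in Ddit4. In other genes called higher, whose stretches are not printed, it lay farther off. The distance was 204 bases in Selenbp1, 211 in 1 Vegfa promoter and 229 in Egln3. The other Vegfa promoter held 0 copies of ACGTG and 0 of GCGTG. Of the other genes called higher, Pdk1 held ACGTG in neither promoter, and Higd1a held 0 copies of ACGTG and 2 of GCGTG. The window of Adm, the gene that fell, held 0 copies of ACGTG and 2 of GCGTG. Among the members that were not called, Hif1a had 3 copies of ACGTG, Mxi1 had it in 2 of 3 promoters and Kdm3a in 0 of 3, so genes that were not called higher held the core as well.

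Many enzymes and transporters of glycolysis were higher in the same arrays. Slc2a1 and Pdk1 belong to this list and to the hypoxia list. Of 18 measured genes, 9 were called higher and 0 lower, and 17 had a difference above 0, with a median of 1.04. Eno2, the neuronal form of enolase, had the highest fitted difference of all 8107 genes: it read 6.51 and 6.49 in fNSC and 12.87 and 12.82 in miPS-NSC, 81.2-fold higher (6.34, SE 0.08, adjusted p = 5.4e-08). The pNSC arrays lay between, at 9.93 and 9.95, and the MEF arrays at 11.17 and 11.06.

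Glucose uptake and its first steps followed. Slc2a3, a high-affinity glucose transporter of neurons, read 9.17 and 9.12 in fNSC and 13.03 and 12.95 in miPS-NSC (14.3-fold, SE 0.08 on the log2 scale, adjusted p = 3.73e-07), above all other arrays. Slc2a1, the widely expressed glucose transporter, rose 2.22-fold from 12.00 and 11.67 to 12.96 and 13.01. Hk2, the hexokinase that traps glucose in the cell, also rose 2.22-fold, from 12.49 and 12.42 to 13.64 and 13.56. Pdk1, the kinase that shuts pyruvate out of the mitochondrial citrate cycle, rose 4.41-fold (adjusted p = 0.000349), although its fNSC arrays read 8.20 and 8.82, farther apart than those of most genes. Pfkp, Aldoa and Pfkfb4 rose 2.96-, 2.30- and 2.18-fold, and the muscle enolase Eno3, not detected in fNSC, at least 1.71-fold. The abundant enzymes moved less and were not called: the difference was 0.90 for Tpi1, 0.64 for Ldha, 0.52 for Pkm and 0.52 for Gapdh, each with an adjusted p between 0.000156 and 0.00473 and a change under 2-fold. Aldoc, the brain aldolase, was the member with a difference below 0 (-0.35). Against pNSC, Slc2a3, Slc2a1, Hk2, Pdk1, Aldoa and Eno2 were called higher in miPS-NSC, whereas Pfkp (-0.52) and Pfkfb4 (-0.23) were not called.

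Genes of the p53 pathway and cell cycle inhibitors were called in both directions. Of 25 measured genes of the p53 pathway and cell cycle inhibitors, 6 were higher and 7 were lower (52% called, median -0.32). The 7 lower genes were Phlda3, Ccng1, Zmat3, Trp53inp1, Fas, Cdkn1a and Ei24, and the 6 higher ones were Cdkn2b, Gadd45b, Gadd45a, Cdkn2a, Cdkn1c and Sesn1. The 7 lower genes are known p53 targets, but so are Gadd45a and Sesn1 among the higher ones, and the targets Mdm2 (-0.52), Bbc3 (0.28), Pmaip1 (0.56), Plk2 (0.52) and Apaf1 (-0.69) were not called.

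Phlda3, an inhibitor of the kinase Akt, read 9.94 and 9.72 in fNSC and 5.07 and 5.13 in miPS-NSC, where it was not detected, at least 12.4-fold lower (-4.73, SE 0.13, adjusted p = 5.95e-07). Cdkn1a, the p21 inhibitor that p53 uses to stop division, read 13.19 and 13.21 in fNSC and 11.41 and 11.37 in miPS-NSC, a fall of 3.50-fold (-1.81, SE 0.08, adjusted p = 3.61e-06). The other Cdkn1a probes gave -2.28 and -2.07. Ccng1, cyclin G1, fell 6.99-fold from 12.69 and 12.45 to 9.70 and 9.83. Zmat3, an RNA-binding zinc finger protein, fell 6.63-fold, Trp53inp1, a p53 cofactor in stress, 6.43-fold, Fas, a death receptor, 3.71-fold and Ei24 2.56-fold. For all 7 genes the miPS-NSC arrays lay below every fNSC, pNSC and MEF array, and all 7 were also called lower than in pNSC. Over all 455 called lower genes the first was true of 221 (48.6%) and the second, in a contrast with the same miPS-NSC arrays, of 50.3%. Mdm2, the ubiquitin ligase that degrades p53 and is itself a target, read 11.54 and 11.62 in fNSC and 11.03 and 11.09 in miPS-NSC and was not called (-0.52, adjusted p = 0.00349). Sesn1, a sestrin gene that p53 also induces, was on the other side, 2.60-fold higher, with fNSC arrays at 8.66 and 9.34.

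The higher genes include inhibitors of cyclin-dependent kinases. Cdkn2b, the p15 inhibitor, read 7.18 and 6.77 in fNSC and 11.98 and 12.01 in miPS-NSC, 32.4-fold higher (5.02, SE 0.17, adjusted p = 1.53e-06). Its neighbour Cdkn2a, which encodes p16 and p19Arf, rose 4.06-fold from 8.77 and 9.03 to 10.79 and 11.05 (2.02, SE 0.26, adjusted p = 0.000719), and a second probe gave 2.26. Cdkn1c, the p57 inhibitor and an imprinted gene expressed from the maternal copy, rose 3.20-fold from 8.92 and 8.92 to 10.58 and 10.61. The stress genes Gadd45a and Gadd45b rose 6.92-fold and, from below detection, at least 5.78-fold.

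**Figure D3:**
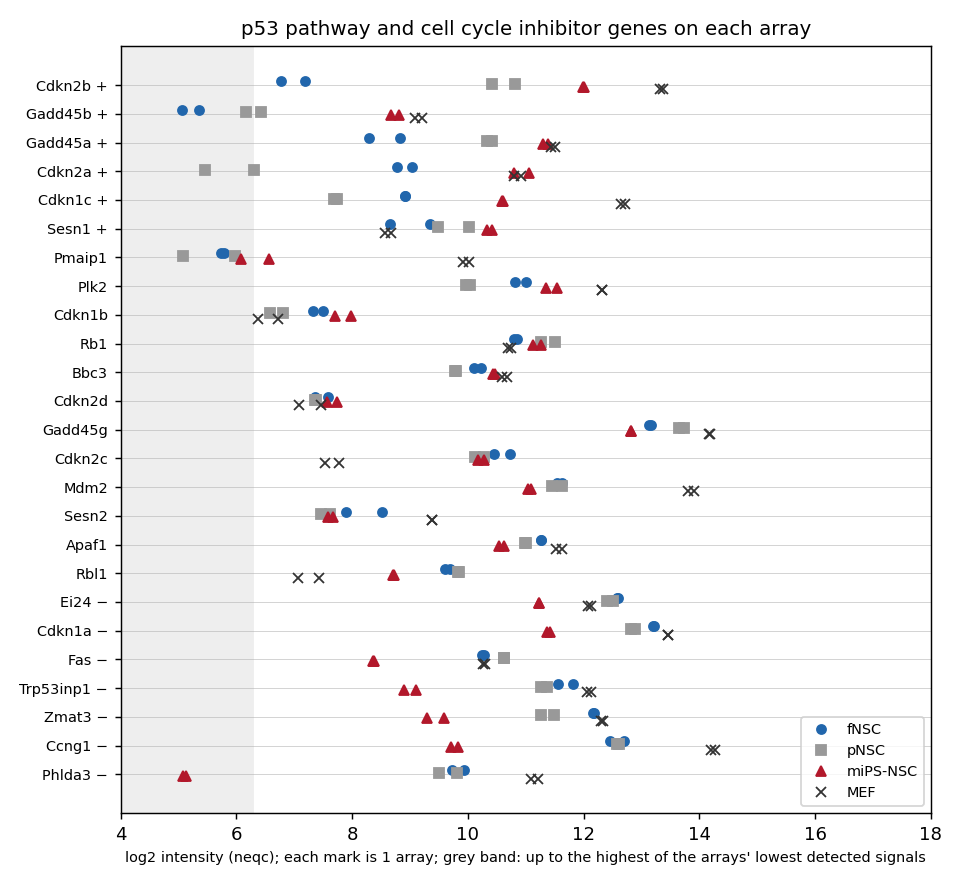
Level of the 25 measured p53 pathway and cell cycle inhibitor genes on each of the 8 arrays (horizontal axis, log2 intensity), 1 mark per array, with + and − for genes called higher or lower in miPS-NSC than in fNSC and a grey band at undetected levels. At the bottom the 7 genes marked − have both miPS-NSC marks to the left of all other marks, and at the top Cdkn2b and Gadd45b have fNSC as the lowest group.

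Genes of division itself were slightly lower with few calls. Of 38 DNA replication genes 0 were higher and 3 lower (7.89% called), with a median difference of -0.53. Of 26 mitosis genes 0 were higher and 3 lower (11.5% called), with a median of -0.46. Both shares were below the 14.1% of all genes that were called. Only 4 of the replication genes and 1 of the mitosis genes had a difference above 0. Fen1, a flap endonuclease, fell 2.87-fold, Rrm2, a subunit of the enzyme that makes deoxynucleotides, 2.70-fold and Mcm3, part of the replicative helicase, 2.23-fold. In mitosis, the checkpoint gene Bub3 fell 2.26-fold, the kinesin Kif23 2.11-fold and Incenp, of the chromosomal passenger complex, 2.06-fold. With quantile normalization without background correction, or with the authors' processed values, 0 mitosis genes were called. Top2a, a marker of dividing cells, read 12.28 and 12.37 in fNSC and 12.20 and 12.16 in miPS-NSC and was not called. Since these are bulk cultures, fewer cells of a type and less RNA per cell cannot be told apart, here and in the marker lists below.

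Of the stress transcription factors, Ddit3 and Atf3 were called higher, and Atf4, which acts upstream of both, was not called (0.44). Ddit3 (Chop) read 7.65 and 7.69 in fNSC and 10.66 and 10.61 in miPS-NSC, 7.78-fold higher (2.96, SE 0.09, adjusted p = 7.94e-07), and the pNSC arrays stood with fNSC, at 7.76 and 7.71. Atf3, not detected in fNSC, rose at least 3.71-fold. In the list of amino acid metabolism and ATF4 targets, 5 of 25 genes were higher and 0 lower (20% called, beside 14.1% of all genes), with a median of 0.25. Chac1, which breaks down glutathione, rose 5.24-fold, the folate enzyme Aldh1l2 2.43-fold, the seryl-tRNA synthetase gene Sars 2.07-fold and the amino acid transporter Slc7a5 2.05-fold, while Trib3 was detected on 1 of the 4 arrays. Asns, asparagine synthetase, was at 0.69 and not called, and Hspa5, the main chaperone of the endoplasmic reticulum, was at -0.05. Across 33 chaperone and unfolded protein response genes 5 were higher and 2 lower (21.2% called), with a median of -0.05.

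Genes of the oxidative stress response went both ways. Of 36 measured genes 5 were higher and 2 lower (19.4% called, beside 14.1% of all genes, median -0.08). Txnip, an inhibitor of thioredoxin that is induced by glucose, read 6.14 and 5.38 in fNSC and 9.24 and 9.23 in miPS-NSC, at least 8.10-fold higher (3.47, SE 0.24, adjusted p = 3.52e-05). Of the Nrf2 targets, Nqo1, Slc7a11 and Hmox1 rose 2.91-, 2.63- and 2.39-fold. Others in the list, Txnrd1 (-0.97), Prdx1 (-0.11), Gclm (0.06) and Srxn1 (0.15), were not called. The calls of Nqo1 and Slc7a11 were each lost in 2 of the 15 alternative settings. Gstm5, a glutathione transferase, read 10.86 and 10.67 in fNSC and 4.92 and 5.87 in miPS-NSC, not detected there and at least 23.8-fold lower (-5.37, SE 0.28, adjusted p = 8.3e-06). The microsomal transferase Mgst1 fell 7.82-fold, from 9.78 and 9.52 to 6.76 and 6.61. For both genes the pNSC and MEF arrays lay above 10 on the log2 scale, far from miPS-NSC.

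Extracellular matrix genes rose more often than they fell, basement membrane components among them. Of 27 measured matrix genes 10 were higher and 2 lower, with a median difference of 0.49. Fbln2, the elastic fibre protein fibulin-2, read 7.50 and 7.30 in fNSC and 12.55 and 12.74 in miPS-NSC, 38.0-fold higher (5.25, SE 0.12, adjusted p = 4.21e-07). It was not detected in pNSC, at 5.68 and 5.49, and a second probe, not detected in fNSC, gave 3.30. The collagen IV chains of basement membranes, Col4a1, Col4a2 and Col4a5, rose 8.13-, 4.45- and 3.29-fold, and Nid2, which links collagen IV to laminin, rose 4.69-fold. Col6a1, a collagen of the pericellular matrix, rose 10.2-fold from 8.13 and 8.25 to 11.50 and 11.56. The laminin chain Lamc1 fell 2.20-fold and Lama1 at least 1.58-fold. Sparc, a matrix glycoprotein, read 12.29 and 12.31 in fNSC and 12.53 and 12.46 in miPS-NSC and was not called.

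The same held for enzymes that build and cut the matrix. Of 28 measured matrix enzymes and inhibitors 12 were higher and 1 lower (median 0.56). Mmp14, a membrane-bound protease, was not detected in fNSC, at 4.88 and 5.04, and read 8.86 and 8.69 in miPS-NSC, at least 5.91-fold higher (3.81, SE 0.10, adjusted p = 5.59e-07). The proteoglycan-cutting protease Adamts4 rose 4.86-fold, the secreted protease Htra1 4.10-fold and Adamts1 3.65-fold. Enzymes that modify collagen were among them: the lysyl hydroxylases Plod1 and Plod2 rose 3.46- and 2.64-fold, beside the prolyl hydroxylases P4ha1 and P4ha2 named above, and the collagen chaperone Serpinh1 rose 2.08-fold. Serpinh1 passed narrowly (adjusted p = 0.0305). The member that fell was Timp1, an inhibitor of matrix proteases, which read 8.36 and 8.53 in fNSC and 6.42 and 5.91 in miPS-NSC, at least 4.35-fold lower (-2.28, SE 0.17, adjusted p = 5.33e-05).

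Of 11 measured genes of TGF-beta signalling and injury response 5 were higher and 1 lower (median 0.70). The latent TGF-beta binding protein Ltbp1 rose at least 3.02-fold, the coreceptor Tgfbr3 2.89-fold, the signal transducer Smad3 2.35-fold, the matricellular gene Ccn2 2.03-fold and the ligand Tgfb3 at least 1.48-fold. Ccn1, a close relative of Ccn2, fell 3.03-fold. All 6 calls of this list were lost with quantile normalization without background correction and with the authors' processed values. Anxa2, a membrane-binding annexin, rose 49.3-fold from 8.34 and 8.19 to 13.84 and 13.94 (5.62, SE 0.09, adjusted p = 1.38e-07), with pNSC at 13.43 and 13.46 and MEF above both. Of 11 annexin and S100 genes, Anxa2 and Anxa6 (2.10-fold) were called (18.2%, beside 14.1% of all genes) and 0 were lower.

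The cytoskeleton showed more falls than rises. Of 21 actin and intermediate filament genes 2 were higher and 5 lower, with a median of -0.38. Acta2, smooth muscle actin, fell 3.79-fold from 8.63 and 8.59 to 6.86 and 6.52, Csrp1 3.48-fold, tropomyosin Tpm1 2.81-fold and the non-muscle myosin Myh9 2.48-fold. Cav1, the coat protein of caveolae, was on the other side: it was not detected in fNSC, at 5.73 and 5.39, and read 10.27 and 10.42 in miPS-NSC, at least 17.6-fold higher (4.79, SE 0.14, adjusted p = 8.51e-07). Its partner Cav2, a gene with the opposite order, read 9.83 and 9.86 in fNSC and 5.21 and 5.29 in miPS-NSC, not detected there and at least 12.5-fold lower. In pNSC both were detected, Cav1 at 8.87 and 9.14 and Cav2 at 9.04 and 9.06.

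Guidance cues and their receptors rose more often than they fell. Of 24 measured axon guidance genes 10 were higher and 1 lower, with a median of 0.72, and 21 had a difference above 0. Among the ligands, Sema3f read 6.90 and 6.84 in fNSC and 10.41 and 10.32 in miPS-NSC, 11.3-fold higher (3.49, SE 0.09, adjusted p = 4.21e-07). The ephrin Efna5 rose 7.74-fold to 10.20 on both miPS-NSC arrays, Sema3a 2.41-fold, Efnb2 at least 1.78-fold and Slit2 at least 1.51-fold. Among the receptors, Unc5b rose at least 2.28-fold, Epha7 at least 1.79-fold, Epha3 at least 1.60-fold and Robo1, the Slit receptor, 2.41-fold. Plxnb3, a semaphorin receptor, fell at least 1.83-fold. This group depended on the processing of dim probes: with quantile normalization without background correction, or with the authors' processed values, 4 genes were higher and 0 lower. In the contrast of miPS-NSC with pNSC, Sema3f (0.80), Efna5 (-0.10) and Sema3a (0.06) were not called.

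Adhesion receptors gave 7 higher and 3 lower of 25 (median 0.32). The laminin receptor subunit Itga7 rose 6.85-fold, the fibronectin receptor subunit Itga5 3.99-fold, and Cd47, an inhibitor of phagocytosis, 2.96-fold, while Alcam, not detected in fNSC, rose at least 2.53-fold. Cdh6, a cadherin of the early neural tube, fell 4.74-fold from 9.09 and 8.78 to 6.54 and 6.84, and the integrin Itga9 fell 4.28-fold.

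Neural stem cell markers moved mostly downward. Of 18 measured markers 6 were lower, 2 higher and 10 not called, with a median difference of -0.41. The summed linear intensity of the list was nevertheless alike, 88510 and 93480 in fNSC and 91270 and 85240 in miPS-NSC. Fabp7, the fatty acid binding protein of radial glia, read 9.81 and 10.37 in fNSC and 6.74 and 7.77 in miPS-NSC, a fall of 7.13-fold (-2.83, SE 0.33, adjusted p = 0.000474). The arrays of miPS-NSC differed by more for this gene than for most, and the groups did not overlap. Nes, nestin, read 12.32 and 12.23 in fNSC and 10.89 and 11.16 in miPS-NSC, a fall of 2.38-fold (-1.25, SE 0.15, adjusted p = 0.000442). Olig2 fell 2.21-fold and Id4 at least 1.22-fold, whereas the proteoglycan Ncan rose 2.79-fold and the RNA-binding protein Msi2 2.03-fold. Vim, vimentin, was at -0.29 with fNSC arrays at 12.20 and 13.07.

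The Notch pathway shared several of these calls. Of 13 measured genes 5 were lower and 2 higher (median -0.27). The target Hes5 read 10.83 and 10.96 in fNSC and 8.16 and 8.18 in miPS-NSC, 6.59-fold lower (-2.72, SE 0.09, adjusted p = 1.17e-06), and its second probe gave -2.73. The pNSC arrays lay between, at 9.51 and 9.39. The ligand Dll1 fell 3.12-fold, the receptor Notch1 2.63-fold, the ligand-like Dner 2.18-fold and the feedback inhibitor Nrarp 2.09-fold. The receptor Notch3 rose 2.93-fold and Mfng, a glycosyltransferase that tunes Notch receptors, 3.26-fold. Hes1, another target, read 10.29 and 10.36 in fNSC and 10.31 and 10.33 in miPS-NSC, with a difference of -0.01.

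Several Wnt ligands fell. Of 13 Wnt and hedgehog genes 4 were lower and 2 higher (median -0.37). The ligand Wnt7b read 10.06 and 9.98 in fNSC and 7.55 and 7.53 in miPS-NSC, 5.56-fold lower (adjusted p = 1.04e-06), with pNSC above both at 11.74 and 11.76. Wnt7a fell 3.77-fold, Wnt5a 2.68-fold and the nuclear effector Tcf7l2 2.52-fold, while the receptors Fzd1 and Fzd7 rose 2.50- and 2.15-fold. In the BMP pathway 3 of 15 genes were higher and 2 lower (median 0.27). The target gene Id1 rose 2.65-fold, the ligand Bmp7 2.31-fold and Bmp4 at least 1.35-fold, and the receptor Bmpr1b fell 3.24-fold.

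Several astrocyte genes were higher. Of 9 measured members 4 were higher and 0 lower (median 0.75), and their summed intensity was 18430 and 19390 in fNSC and 27640 and 29120 in miPS-NSC. Clu, a secreted chaperone, read 7.34 and 7.52 in fNSC and 11.52 and 11.64 in miPS-NSC, 17.8-fold higher (4.15, SE 0.10, adjusted p = 4.21e-07). Gja1, the gap junction protein of astrocytes, rose 9.36-fold from 10.01 and 10.02 to 13.23 and 13.25. Most of the rise in the summed intensity came from Gja1. Apoe, a lipid carrier not detected in fNSC at 6.06 and 5.45, rose at least 10.6-fold to 9.61 and 9.63, and the glutamate transporter Slc1a2 rose 2.77-fold. Relative to pNSC, Apoe was lower in miPS-NSC (3.38-fold, adjusted p = 0.000288) and Gja1 was not called (-0.93). Aldh1l1, a metabolic enzyme widely used to mark astrocytes, was not detected in miPS-NSC and was not called (-0.59), and Aldoc was at -0.35.

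Neuronal genes moved in both directions, mostly upward. Of 13 measured members 6 were higher and 2 lower (median 0.62). Their summed intensity was 15530 and 15600 in fNSC and 30570 and 29980 in miPS-NSC. Besides Eno2, the secreted neurite factor Nrn1 rose 40.6-fold, from 6.94 and 7.38 to 12.63 and 12.38 (5.34, SE 0.16, adjusted p = 8.56e-07). Gad1, which makes the transmitter GABA, rose 9.57-fold from 6.23 and 6.62 to 9.73 and 9.63, and Syt1, the calcium sensor of synaptic vesicles, at least 8.02-fold. The growth cone protein Gap43 and the microtubule protein Mapt rose 2.12- and 2.78-fold. Vxn, vexin, which promotes neuronal differentiation in the frog, had the lowest fitted difference of all genes, although its place among the falls is not fixed where the fold is a bound: it read 12.15 and 12.25 in fNSC and 5.55 and 5.10 in miPS-NSC, not detected there and at least 64.3-fold lower (-6.88, SE 0.16, adjusted p = 4.21e-07). Nefm, a neurofilament, fell at least 1.63-fold. Map2, a dendrite protein, and Syp, a synaptic vesicle protein, were not called (0.27 and -0.14).

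In the oligodendrocyte lineage 1 of 6 genes was lower and 0 were higher (16.7% called, beside 14.1% of all genes, median -0.30). The summed intensity was 54330 and 57050 in fNSC and 43670 and 40560 in miPS-NSC. Most of this sum on each array came from Olig1, which is in this list and was not called (-0.39). Cspg4, the NG2 proteoglycan of oligodendrocyte precursors, read 6.78 and 6.65 in fNSC and was not detected in miPS-NSC, at 4.86 and 4.94 (at least 1.43-fold lower). Pdgfra, the growth factor receptor of the same precursors, was at 5.60 and 5.32 in fNSC, where it was not detected, and was detected on 1 miPS-NSC array. Bcas1, of early myelinating cells, was not called (-0.49).

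Regional identity genes differed along the body axis list. Of 9 measured hindbrain and posterior genes 3 were lower and 1 higher. Hoxa5 read 11.86 and 11.92 in fNSC and 10.71 and 10.71 in miPS-NSC (2.26-fold lower), Hoxa7 was not detected in miPS-NSC (at least 3.30-fold lower), and Hoxa4 fell at least 1.98-fold with arrays that were wide apart in miPS-NSC, at 5.98 and 6.71 (adjusted p = 0.0241). The Hoxa4 call was lost without miPS-NSC array 1 (-0.71, adjusted p = 0.121), fNSC array 1 or fNSC array 2. En1, a midbrain and hindbrain factor, was not detected in fNSC and rose at least 5.24-fold to 8.52 and 8.68. Zic1, a zinc finger factor of the dorsal neural tube outside this list, fell at least 17.7-fold, from 10.16 and 10.52 to 5.28 and 5.45. The 4 measured forebrain genes had differences between -0.53 and 0.60 and were not called, and Otx2 was not detected in either group.

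Lists of markers of other cell types were read as well, but many of their members were not measured. Measured were 9 of 19 fibroblast, 3 of 11 ependymal, 2 of 10 endothelial and 1 of 13 microglial markers. Of 13 endoderm and mesoderm markers 1 was measured, Gata6, which neither group detected on both arrays and which was not called (0.25). These lists therefore cannot show which other cells the cultures held. Of 9 fibroblast markers 2 were higher and 1 lower (median 0.02), and their summed intensity rose from 1461 and 1413 in fNSC to 8024 and 8578 in miPS-NSC. Fbln2 and Thy1 were the higher members, and most of the miPS-NSC sum came from Fbln2. Thy1, a surface protein of fibroblasts and of neurons, was not detected in fNSC, at 5.11 and 4.79, and read 9.83 and 9.65 in miPS-NSC (at least 11.5-fold higher) and 15.08 and 15.06 in MEF. Col1a2, the collagen I chain that defines fibroblasts, and S100a4 were not detected in either neural stem cell group, Acta2 fell, and Twist1 (0.42) and Prrx1 (-0.87) were not called. The part of fibroblast-like cells in the matrix results was not tested beyond these values.

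Of 8 pluripotency genes 3 were higher and 0 lower (median 0.79), with a summed intensity of 1773 and 1857 in fNSC and 2739 and 2931 in miPS-NSC. Myc, a growth factor response gene also used in reprogramming, read 7.78 and 7.15 in fNSC and 8.92 and 9.06 in miPS-NSC, 2.88-fold higher (adjusted p = 0.00114). Klf4 rose 2.04-fold, with other probes at 0.91 and 1.60, and Fbxo15 at least 1.48-fold. All 3 calls were lost with quantile normalization without background correction and with the authors' processed values, and 1 remained with an offset of 50. Pou5f1 read 6.49 and 5.57 in fNSC and 6.94 and 6.71 in miPS-NSC, close to the detection limit in both, and was not called (0.79, adjusted p = 0.0405). Without fNSC array 1 it was called higher (1.25, adjusted p = 0.000648). The platform cannot tell an endogenous transcript from a transgene of the same sequence.

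Further marker lists held few measured members. Of the endothelial genes, 2 of 2 were higher, the VEGF receptor Flt1 4.21-fold and Emcn at least 1.44-fold, while pNSC had more Flt1 than either, at 11.90 and 11.93. Of the microglia list, Cd14, the lipopolysaccharide coreceptor, was the 1 measured gene and fell at least 8.19-fold from 9.20 and 9.26. Of 4 neural crest and Schwann genes, the myelin gene Pmp22 and the transcription factor Ets1 rose 5.16- and 2.16-fold. Of 3 ependymal genes Aqp1 passed the test although neither group detected it, so no fold is given, and the call was lost without miPS-NSC array 2 (0.91).

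Imprinted genes were called in both directions. Of 11 measured paternally expressed genes 2 were higher, 2 lower and 7 not called (36.4% called, beside 14.1% of all genes), and the median difference was 0.15. Snrpn, which encodes a splicing protein in the Prader-Willi region, read 12.67 and 12.77 in fNSC and 12.89 and 12.85 in miPS-NSC (0.15, SE 0.08, adjusted p = 0.189), and was not detected in pNSC, at 5.15 and 5.06. Its neighbour Mkrn3 read 9.73 and 9.72 in fNSC and 9.57 and 9.51 in miPS-NSC (-0.18) and was likewise not detected in pNSC. Ndn, necdin, of the same region, departed from both: it read 9.42 and 9.72 in fNSC and 5.01 and 5.32 in miPS-NSC, not detected there and at least 10.4-fold lower (-4.40, SE 0.14, adjusted p = 1.2e-06). The miPS-NSC arrays stood with pNSC, at 4.95 and 5.09, for this gene.

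Mest, a hydrolase gene, lay between: it read 13.21 and 13.63 in fNSC, 11.13 and 11.60 in miPS-NSC and 4.87 and 4.92 in pNSC, and was 4.15-fold lower than in fNSC (-2.05, SE 0.19, adjusted p = 0.000133). Its other probes gave -2.30 and -2.22. Impact, a regulator of translation under stress, exceeded fNSC, at 11.96 and 11.97 against 10.58 and 10.52 (2.67-fold, adjusted p = 7.22e-05). Dlk1, a Notch-like membrane protein, was not detected in fNSC, at 5.77 and 5.23, and read 8.57 and 8.32 in miPS-NSC, at least 4.70-fold higher (adjusted p = 6.69e-05). Nnat (-0.87), Nap1l5 (0.96), Inpp5f (0.02) and Peg10 (0.87) were not called, and Igf2 was not detected in any neural stem cell group.

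Of 15 measured maternally expressed genes 1 was higher and 0 lower (6.67% called), with a median of -0.03. The higher gene was Cdkn1c, given above. Apart from this list, Xist, the non-coding RNA that spreads over an X chromosome to silence it, read 8.17 and 8.13 in fNSC and 5.23 and 4.99 in miPS-NSC, not detected there and at least 3.88-fold lower (-3.04, SE 0.11, adjusted p = 2.21e-06). The pNSC arrays, at 8.34 and 8.17, stood with fNSC. The Y-linked gene Uty was not detected on any array of either group. The median difference over all genes of the X chromosome was -0.026.

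The genes with the highest fitted differences included secreted proteins. Igfbp4, a binding protein of insulin-like growth factors, read 9.48 and 9.66 in fNSC and 14.63 and 14.67 in miPS-NSC, 34.0-fold higher (5.09, SE 0.12, adjusted p = 4.21e-07). Its relative Igfbp7 rose 18.7-fold from 8.14 and 7.81 to 12.07 and 12.32, and was close to the detection limit in pNSC, at 6.18 and 6.54. Agt, angiotensinogen, was not detected in fNSC and rose at least 14.9-fold. The iron-siderophore binding protein Lcn2 rose 21.4-fold and the membrane mucin Pdpn, podoplanin, 28.1-fold. Of transcription regulators, Lmo2, a bridge protein of blood cell development, read 6.86 and 6.73 in fNSC and 11.31 and 11.19 in miPS-NSC, 21.9-fold higher, above all other arrays.

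The genes with the lowest fitted differences were mostly undetected in miPS-NSC. Ddit4l, a paralogue of the mTOR inhibitor gene Ddit4, read 11.74 and 11.67 in fNSC and 4.92 and 4.99 in miPS-NSC, at least 45.6-fold lower (-6.75, SE 0.08, adjusted p = 5.4e-08), the direction opposite to that of Ddit4 itself. Mfsd2a, the lysolipid transporter that carries omega fatty acids into the brain, read 11.23 and 11.19 in fNSC and 4.62 and 4.84 in miPS-NSC, at least 32.3-fold lower. Kcnc1, a voltage-gated potassium channel, fell 29.1-fold from 13.28 and 13.26 to 8.47 and 8.35 and stayed detected. Bag3, a cochaperone of selective autophagy, fell at least 25.1-fold.

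A part of these falls set miPS-NSC apart from all other cells of the series. Dnajc15, a cochaperone of the mitochondrial inner membrane, read 10.71 and 10.86 in fNSC, 10.86 and 10.92 in pNSC and 10.19 and 10.19 in MEF, against 4.91 and 4.70 in miPS-NSC (at least 24.0-fold below fNSC, adjusted p = 1.46e-07). Slc25a20, which carries acylcarnitines into mitochondria, read 11.44 and 11.25 in fNSC, 11.39 and 11.51 in pNSC and 5.71 and 5.26 in miPS-NSC, at least 35.4-fold lower, and a second probe gave -2.44. Slc50a1, a sugar transporter, read 9.44 and 9.79 in fNSC and 4.58 and 4.53 in miPS-NSC, at least 10.7-fold lower. All 3 genes were detected on every array of fNSC, pNSC and MEF.

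Other falls were shared with pNSC. Sspn, a member of the dystrophin complex, read 10.92 and 10.92 in fNSC and was not detected in miPS-NSC, at 4.76 and 4.71, or in pNSC, at 4.73 and 4.60. Cops8, a signalosome subunit, read 11.78 and 11.89 in fNSC, 6.35 and 5.83 in miPS-NSC and 6.32 and 6.78 in pNSC. Over all 455 genes called lower than fNSC, the median of pNSC minus fNSC was -0.474 beside -1.43 for miPS-NSC minus fNSC, and over the 689 higher genes the medians were 0.713 and 1.54. The 2 contrasts share the fNSC arrays. Set against pNSC, 229 of the 455 genes (50.3%) were also called lower and 322 of the 689 (46.7%) also called higher. This contrast, in which 6.99% and 7.64% of all genes were called, uses the same miPS-NSC arrays as the one that chose the genes, so the shares are a description.

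Interferon and lysosomal genes were called in both directions. Of 19 interferon response and MHC class I genes 5 were lower and 2 higher (36.8% called, beside 14.1% of all genes, median -0.05). With quantile normalization without background correction, or with the authors' processed values, 1 was lower and 2 were higher. Ifitm3, an antiviral membrane protein, read 14.91 and 14.95 in fNSC and 11.79 and 11.94 in miPS-NSC, 8.39-fold lower (adjusted p = 7.7e-07), and H2-K1 and Gbp2 rose 2.99- and 3.11-fold. Of 41 lysosomal genes 5 were higher and 3 lower (19.5% called, median 0.40). Hexa and Lgmn, a hexosaminidase subunit and an asparaginyl protease, rose 3.69- and 3.39-fold, and the lipase Lipa fell 2.73-fold.

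Ribosomal protein, proteasome and oxidative phosphorylation genes were called less often than all genes, of which 14.1% were called. Of 52 cytosolic ribosomal protein genes 1 was called (Rpl29, 2.35-fold higher) and the median difference was 0.02. Of 33 proteasome genes 1 was called, lower, and the median was -0.14. In oxidative phosphorylation 4 of 77 genes were higher and 1 lower (median -0.08). The higher genes include the muscle isoforms Cox6a2 (at least 6.22-fold) and Cox7a1 (2.73-fold), and the lower one was Cycs, cytochrome c (2.86-fold). Mitochondrial ribosomal proteins gave 5 lower and 0 higher of 71 (median -0.20), among them Mrpl15 (2.85-fold) and Mrps6 (2.64-fold). Of 39 chromatin modifiers 4 were higher and 1 lower (12.8% called). The histone deacetylase gene Hdac7 rose 5.65-fold, while the Polycomb methyltransferase gene Ezh2 was at -0.14. Of 22 cholesterol genes 2 were higher and 1 lower (13.6% called). Solute carriers gave 18 higher and 10 lower of 150 (18.7%), and Zfp zinc finger genes 6 and 7 of 167 (7.78%).

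**Figure D4:**
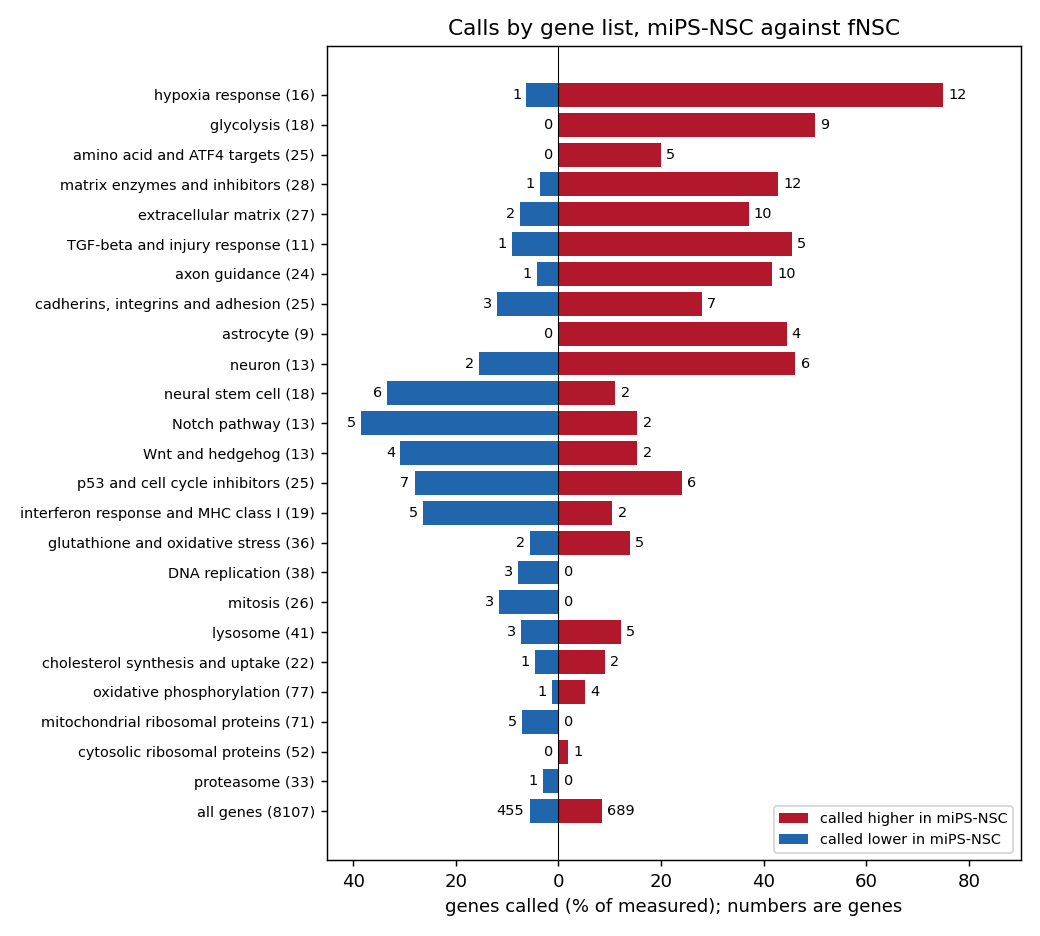
Share of the measured genes that was called, for 24 of the lists and for all genes (horizontal axis, percent), lower in miPS-NSC to the left in blue and higher to the right in red, with the number of genes at each bar and the number measured after the name of the list. Among the lists drawn, which leave out the shortest marker lists and some others, hypoxia response has the longest red bar (12 of 16) and Notch pathway the longest blue bar (5 of 13), and the bars of cytosolic ribosomal proteins and proteasome are shorter than those of all genes at the bottom.

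Chromosome 19 stood apart from the other chromosomes. Of its 290 genes 8 were higher (2.76%) and 43 lower (14.8%), and 78.6% had a difference below 0, with a median of -0.495. On the other chromosomes the median lay between -0.113 and 0.059, 2.9% to 8.3% of genes were lower, and 6.25% to 11.3% were higher. Genes named above that lie on chromosome 19 are Fas, Fen1, Incenp, Tcf7l2, Lipa, Acta2 and Mxi1. The median of miPS-NSC minus pNSC on this chromosome was -0.054, and that of pNSC minus fNSC was -0.471.

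The per-array values placed the displacement in the fNSC arrays. Over the 233 genes of chromosome 19 detected on all 8 arrays, the median deviation of an array from the mean of its gene over the arrays was 0.42 and 0.40 in fNSC, -0.11 and -0.09 in miPS-NSC, -0.08 and -0.05 in pNSC and -0.24 and -0.26 in MEF. Over the genes of the other chromosomes it was 0.04 to 0.06 on the neural stem cell arrays and -0.12 on the MEF arrays. The fNSC minus MEF median on chromosome 19 was 0.770, beside 0.093 to 0.380 on the other chromosomes. The DNA copy number of the cells was not measured, and its part in this difference was not tested. Gnaq, a G protein subunit, read 10.82 and 10.93 in fNSC and 6.95 and 6.90 in miPS-NSC, 15.5-fold lower (-3.95, SE 0.09, adjusted p = 3.9e-07), with pNSC at 6.95 and 6.99. Acsl5, a fatty acid activating enzyme, averaged 11.01 in fNSC and read 7.28 and 7.11 in miPS-NSC, 14.0-fold lower, with pNSC at 11.99 and 11.89. Without chromosome 19, an alternative added after seeing the data, 681 genes were higher and 412 lower. Chromosome 4, on which the pNSC minus fNSC median was -0.702, was not displaced in miPS-NSC (-0.043), and it holds Cdkn2a, Cdkn2b, Hes5 and Slc2a1.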

How the data were processed

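RNA of cultured mouse cells was measured on 8 Illumina BeadChip arrays, 2 per group, of which the 2 of miPS-NSC and the 2 of fNSC are compared here. Each probe has, per the file headers, a deposited mean bead intensity and a detection p-value for every array. The column values show no normalization between arrays, and GenomeStudio 2009.2 is named in the submitters' processing notes. The authors' processed values, deposited on a log2 scale for 12421 probes, are those whose detection p was below 0.05 on 4 or more arrays, as tested on the signals, and served as an alternative. The sources used here do not give their background step. Probe names came from the platform annotation of these 12421 probes (11692 with 1 symbol, 0 with several, 729 with none), of which 11686 matched RefSeq (GRCm38.p6) by gene ID. A gene switched on in 1 group of 2 arrays is therefore mostly unnamed here.

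Background correction and quantile normalization used the neqc function (limma 3.58.1 in R 4.3.3, the package data.table at version 1.17.8) with an offset of 16. Probes were kept if some group had a detection p below 0.01 on both of its arrays (12478 probes, 10958 with a gene), and the brightest kept probe stood for its gene (8107 genes, 2095 with several kept probes). One limma model (lmFit, then eBayes) held all 8 arrays, with 4 residual and 2.98 prior degrees of freedom. Tests were two-sided, with the Benjamini-Hochberg adjustment running over the 8107 genes. Where the dimmer group was not detected on both arrays, the fold is a lower bound against, per array, the higher of its own value and the lowest detected signal (6.13 to 6.29). Genes that neither group detected have no fold. Gene lists are described by counts and medians. The members and lists were chosen with earlier results of these data known. Genes were named by rule: the 15 called genes with the largest rise and the 15 with the largest fall, up to 6 called members of each list, all measured paternally expressed imprinted genes, the called maternally expressed ones, and up to 4 markers per cell type. Genes named beyond that rule were chosen after their values were seen. The fit was tested on simulated data. No 2 arrays of a group held identical values (chi-square per probe against bead noise 1.57 to 2.37). Arrays with the same name ending deviated together little (r -0.00173 between miPS-NSC and fNSC, 0.0286 to 0.0709 between the other pairs of groups). They were therefore not treated as pairs. The number of arrays limits the precision.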

Additional observations from a re-analysis of the deposited data

Results flagged for a closer look

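Probes without a gene name are outside every count above. Of the 1520 kept probes with no name, 187 (12.3%) were called between miPS-NSC and fNSC, 129 higher and 58 lower. Of the 1520 probes, 107 were detected on both miPS-NSC arrays and on no fNSC array, and 39 on both fNSC arrays and on no miPS-NSC array. Their genes are not identified here.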

How the results depend on the processing

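The count of 1144 called genes was 4163 (1983 higher, 2180 lower) with no minimum fold, 548 (355 and 193) with quantile normalization without background correction, and 566 (368 and 198) with the authors' processed values. All genes called under the last 2 settings were among the 1144, in the same direction. The distance between the groups was 0.579 and 0.572 under these settings, against 0.869. The other alternatives (an offset of 50, median scaling, cyclic loess, no filter on dim probes, detection required in the pair, the mean of a gene's probes, 4 or 6 arrays) gave 886 to 1161 genes. Leaving out 1 array in turn gave 1160 to 1196, the lone array being assumed to vary like the other groups, and fitting the replicate block by name ending gave 1143 (688 and 455). Among genes named in the text, calls close to 2-fold were lost without 1 array: Ccn2 (0.95) and Trib3 (0.82) without miPS-NSC array 1, Aqp1 (0.91), Dner (-0.97) and Incenp, whose change fell just under 2-fold, without miPS-NSC array 2, Ccn2 (0.80), Klf4 (0.84), Mcm3 (-0.97), Sars (0.98) and Slc7a5 (0.97) without fNSC array 1, and Anxa6 (0.93), Dner (-0.82), Msi2 (0.99) and Smad3 (0.90) without fNSC array 2, while Peg10 (1.03) and Nap1l5 (1.05 and 1.03) became calls without miPS-NSC array 1 and without miPS-NSC array 2 or fNSC array 1. Of 188 called genes named by the rule, 122 were called in all 15 settings, and 0 results reversed. The hypoxia list kept 11 or 12 genes higher and 1 lower, and the p53 list 6 higher and 7 lower, in every setting. Most other lists depended on the processing: with quantile normalization without background correction or the authors' processed values, 22 of the 44 lists with a call had over 1.5 times fewer. Of these, 6 lost every call under both: TGF-beta and injury response (5 higher, 1 lower), pluripotency (3 higher), mitosis (3 lower), and oligodendrocyte lineage, ependymal and proteasome with 1 each. Under both, axon guidance fell from 10 higher and 1 lower to 4 and 0, adhesion from 7 and 3 to 3 and 2, Notch from 2 and 5 to 1 and 2, interferon from 2 and 5 to 2 and 1, oxidative stress from 5 and 2 to 2 and 2, BMP from 3 and 2 to 1 and 1, neural stem cell from 2 and 6 to 1 and 4, and glycolysis from 9 higher to 6. The median of chromosome 19 lay between -0.33 and -0.51. The cause of these shifts was not tested. The slide as a block was not run, since the headers give none. With 2 arrays per group from 1 line each, the spread between cultures was not measured, and below background only bounds could be given.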
